A study of Mus musculus with 36 samples.

Results

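The genes of the pyruvate kinase, lactate and pyruvate dehydrogenase steps were followed in cultured mouse hepatocytes. The set held 10 genes of 52230 in the annotation, chosen by name from their place in the pathway: Pklr, Pkm, Ldha, Slc16a1, Pdha1, Pdhb, Pdk1, Pdk2, Pdk4 and Pdp2. They were chosen with earlier results of these data known. All 10 passed the filter on low counts and were among the 12177 genes tested. Hepatocytes were isolated from 3 female mice, aged 14 weeks, of the GCKR-P446L-EMI-B6N strain, which carries the proline (P) to leucine (L) substitution P446L in the glucokinase regulatory protein (GKRP, gene Gckr). The labels give the genotype of mice 1 and 2 as Gckr-446L and that of mouse 3 as Gckr-446P/L, so no genotype can be told apart from an animal. Adenoviral vectors expressed glucokinase (GK), the P or L form of human GKRP (hP, hL), the P or L form of mouse GKRP (mP, mL), or GK together with 1 GKRP vector, and untreated cells (UN) received no vector. These made 10 conditions with 1 culture of each mouse, or 2 in UN and in GK alone, and the 36 cultures were summed to 30 samples, so that n = 3 mice in every condition. The vectors were added to whole monolayers after attachment, on top of the endogenous GK and GKRP of the cells, and the study's methods state that homozygous 446L cells do not hold their own GK in the nucleus. Cultures of all conditions were kept with 10 nM insulin and 10 nM dexamethasone for 24 h at 5 mM glucose and were then incubated with 25 mM glucose for 4 h before RNA extraction. There was no empty vector among the 10 conditions, so exposure to a vector and the expressed protein cannot be told apart in any comparison with UN.

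Pyruvate kinase makes pyruvate in the last step of glycolysis, lactate dehydrogenase interconverts pyruvate and lactate, and the mitochondrial pyruvate dehydrogenase complex converts pyruvate to acetyl-CoA. Pyruvate dehydrogenase kinases switch the complex off by phosphorylation and its phosphatases switch it on. In liver, Pklr is a classical target of ChREBP, the transcription factor that responds to glucose metabolites made after phosphorylation by GK, and GKRP binds GK and holds it in the nucleus.

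Libraries held 3924674 to 10046158 reads (median 5980276.5). Mouse Gckr was at 38.3 to 115 CPM (counts of a gene scaled to the library total) without a mouse GKRP vector and at 8421 CPM or more with it, except that 1 of the 6 cultures of GK alone, from mouse 3, reached 1425 CPM. Results that rest on GK alone are therefore also given without that culture. Human GKRP was not analysed here, since the transcript set is that of the mouse. The 8 hepatocyte markers summed to 72063 to 98279 CPM in mouse 1, 92933 to 110460 CPM in mouse 3 and 116350 to 139560 CPM in mouse 2, and none of the 8 was at 0 in every sample. The 5 cholangiocyte markers summed to 143 to 245 CPM in mouse 1 against 15.4 to 22.9 CPM in mouse 2 and 23.5 to 34.2 CPM in mouse 3. That difference was carried by Spp1, which reached 228 CPM, while Krt19, Krt7 and Epcam did not exceed 2.04 CPM. Of the markers of hepatocytes (8 of 8 tested), macrophages (8 of 8), endothelial (6 of 6), stellate (2 of 7), cholangiocyte (2 of 5) and red blood cells (1 of 3), none passed the test by edgeR in any of the 7 comparisons made over groups of conditions.

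In TPM, a scale corrected for transcript length, the order of the 10 genes was led by Ldha, the main lactate dehydrogenase subunit, with a median of 1961 TPM over the 30 samples (978 to 3417). Pkm, the pyruvate kinase of most tissues other than liver, was next at 260 TPM (132 to 429). Pdhb and Pdha1, the beta and alpha subunits of the E1 enzyme of the pyruvate dehydrogenase complex, were at 64.2 TPM (38.3 to 139) and 58.9 TPM (32.3 to 104). Pdk1 lay between them at 61.7 TPM (14.9 to 96.7), and these 3 neighbours did not differ beyond their spread. The liver pyruvate kinase gene Pklr was lower, at 26.9 TPM (10.95 to 100.2), and its range overlapped those of Pdk2 at 24.6 TPM and Slc16a1 at 16.4 TPM. Pdk4, a kinase known for its induction by fasting, was at 6.41 TPM and the phosphatase Pdp2 at 1.23 TPM. CPM divided by the mean effective length gave all 10 genes the same rank.

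The sources of variation divided the 10 genes. Of the sum of squares of log2 CPM over 30 samples, differences between conditions made up 72.2% for Pklr, 61.3% for Slc16a1 and 56.8% for Pdhb. Differences between mice made up 87.7% for Pdk1, 87.5% for Pdk2, 87.3% for Ldha and 59.9% for Pkm. The medians over all genes tested were 25.7% for conditions and 28.7% for mice. For the low genes Pdp2 and Pdk4 conditions also held the largest share, 49.9% and 47.9%, with 39.8% and 32.4% in neither. Pdha1 had 38.1% between conditions and 38.1% in neither, against a median of 38.0% in neither over all genes.

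**Figure D1:**
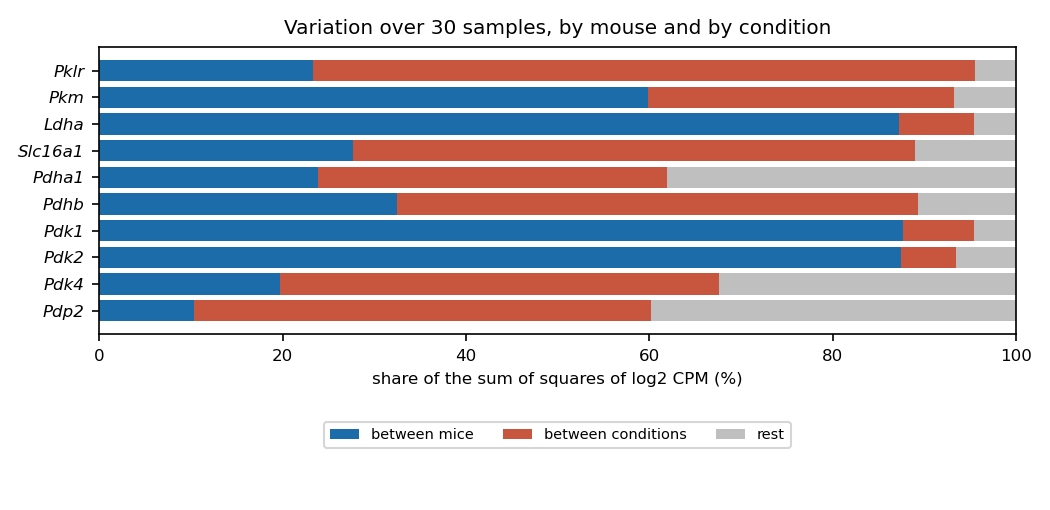
Share (%) of the sum of squares of log2 CPM over 30 samples that lies between the 3 mice, between the 10 conditions, and in neither, for each of the 10 genes. Conditions hold the largest share for Pklr (72.2%), Slc16a1 (61.3%), Pdhb (56.8%), Pdp2 (49.9%) and Pdk4 (47.9%), and mice the largest for Pdk1 (87.7%), Pdk2 (87.5%), Ldha (87.3%) and Pkm (59.9%). Shares are not corrected for the number of conditions and mice.

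Pklr (chr3:89043449-89054619, plus strand, GRCm39) encodes the liver and red cell isoforms of pyruvate kinase. Its proximal promoter is shown because it holds the carbohydrate response element to which ChREBP is known to bind. The 199 bases at chr3:89043680-89043878, plus strand, end just before the first annotated base of the liver first exon, and the capitals mark the match to the element, searched as CACGNG, any 5 bases and CNCGTG on both strands.
Pklr promoter: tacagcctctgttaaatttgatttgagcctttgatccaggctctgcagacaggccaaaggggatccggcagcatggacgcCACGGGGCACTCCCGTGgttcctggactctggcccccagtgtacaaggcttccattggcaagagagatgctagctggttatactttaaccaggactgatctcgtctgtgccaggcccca
The match lies at −170 to −154 from the RefSeq start. RefSeq promoter windows (GRCm38.p6; 250 bases before and 50 after the start) were matched to GRCm39 for all 10 genes, 15 windows in all, and each occurred once. Of 32851 windows in the table, 15 held the element (0.0457%), and Pklr was the only 1 of the 10 genes among them.

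Pklr rose with GK overexpression. It was at 115, 55.6 and 96.7 CPM in UN and at 178, 121 and 229 CPM in GK alone, in mice 1, 2 and 3. Every GK value was above every UN value, and mouse 2 was the lowest in each condition. At endogenous GK with a GKRP vector it was at 29.3 to 78.3 CPM, below UN of the same mouse in every culture. GK alone was set against UN, hP, hL, mP and mL together (the 5 combined groups) in the quasi-likelihood test of edgeR. To pass, a gene needed an adjusted p under 0.05 and a fold change outside 0.7 to 1.3. By this rule 3 of the 10 genes rose (Pklr, Pdhb and Slc16a1) and none fell, while 0.427% of all genes passed in either direction. These shares are not an independent comparison, since the 10 genes were chosen with earlier results of these data known. The study itself names Pklr and Slc16a1 among the genes raised by GK. The log2 fold change of Pklr was 1.58 (SE 0.26, adjusted p = 0.00102), and without the culture that stands apart it was 1.61 (adjusted p = 0.000831). In a model that also fitted the mouse, 4 of the 10 genes passed, the added one being Pkm, and 1.99% of all genes passed. The 3 calls were lost when mouse 3 was left out (Pklr 1.398, adjusted p = 0.498; Pdhb 0.71, adjusted p = 0.934; Slc16a1 0.35, adjusted p = 1.00). Leaving out mouse 2 ended the calls of Pdhb (0.98, adjusted p = 0.129) and Slc16a1 (0.44, adjusted p = 0.162). With an offset for transcript length, no gene of the 10 passed, at 1.56 for Pklr (adjusted p = 0.0534), 0.81 for Pdhb (adjusted p = 0.540) and a larger 0.62 for Slc16a1 (SE 0.19, adjusted p = 0.7096).

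**Figure D2:**
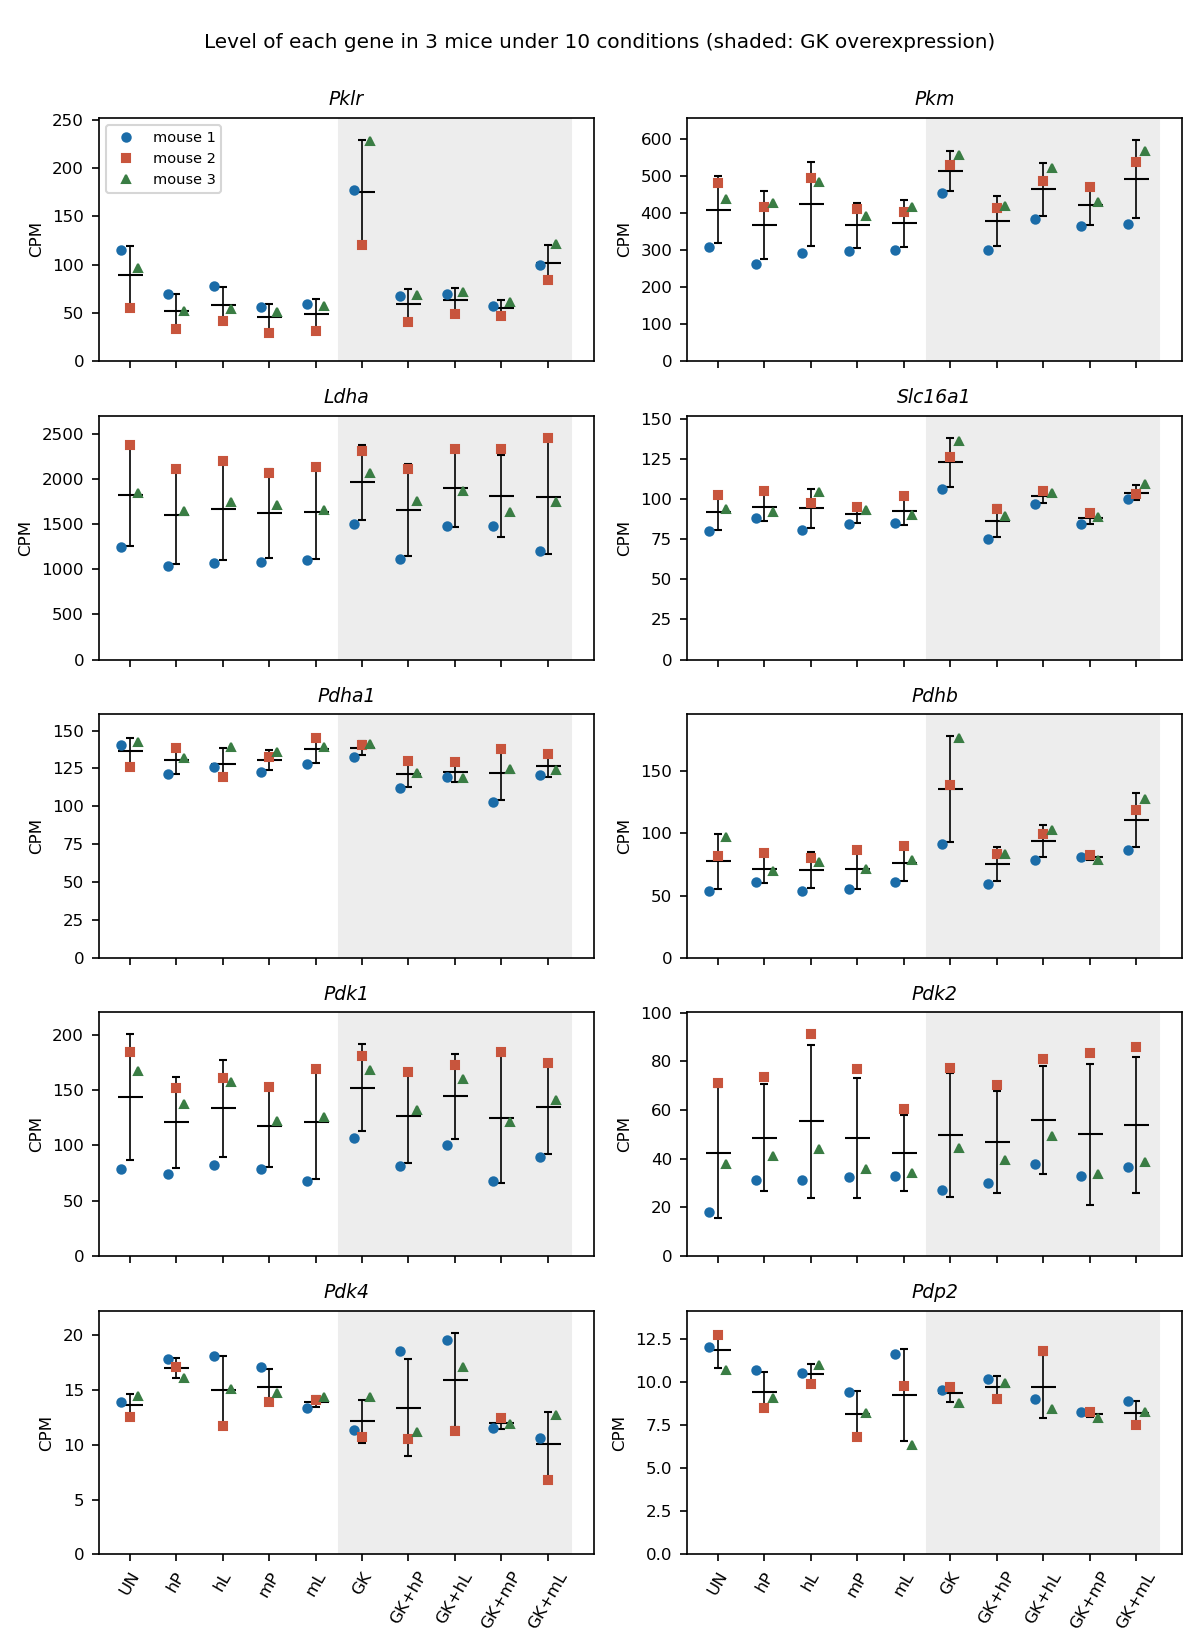
Level (CPM, y axes from 0) of the 10 genes in each condition (x axis), with a point for each of 3 mice and a bar for mean ± SD. Pklr, Pdhb and Slc16a1 stand highest under GK alone, whereas for Ldha, Pdk1 and Pdk2 the mice separate more than the conditions.

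Pdhb (chr14:14296739-14304802, plus strand, GRCm39), which encodes the E1 beta subunit, was the next largest change. Its promoter is shown for contrast with that of Pklr, since the 208 bases before its first annotated base, chr14:14296531-14296738, plus strand, held neither the carbohydrate response element nor the E-box CACGTG, and accordingly carry no capitals.
Pdhb promoter: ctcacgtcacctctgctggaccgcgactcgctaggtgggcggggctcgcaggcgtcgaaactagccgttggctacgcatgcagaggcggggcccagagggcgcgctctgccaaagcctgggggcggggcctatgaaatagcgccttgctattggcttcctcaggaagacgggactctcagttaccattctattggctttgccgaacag
The absence of these letters from this window says nothing of sites elsewhere. Pdhb was at 53.5, 81.9 and 97.1 CPM in UN and at 91.3, 139 and 176 CPM in GK alone, in mice 1, 2 and 3. GK was above UN within each mouse, but the ranges overlapped because mouse 1 was low in both. Its log2 fold change in GK against the 5 combined groups was 0.88 (SE 0.16, adjusted p = 0.00521), and without the culture that stands apart it was 0.90 (adjusted p = 0.00447). Its most abundant transcript held a median of 96.3% of the estimated reads of the gene over 36 cultures. It ranged from 39.9 to 99.5 CPM in the 6 cultures of UN and from 85.1 to 173 CPM in the 6 of GK.

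The partner subunit Pdha1 (X chromosome) was flat beside Pdhb. It was at 140, 126 and 143 CPM in UN and at 133, 141 and 141 CPM in GK alone. These values overlapped, and the log2 fold change in GK against the 5 combined groups was 0.06 (95% interval −0.08 to 0.20, adjusted p = 1.00). The ratio of Pdhb to Pdha1 in CPM per kilobase was 0.68, 1.16 and 1.22 in UN and 1.23, 1.76 and 2.23 in GK alone. In TPM the ratio was 0.61, 1.53 and 1.12 in UN and 1.69, 1.85 and 2.15 in GK, higher in GK within all 3 mice on either scale. No test of this ratio was made.

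Slc16a1 (chr3:104545811-104565780, plus strand, GRCm39) encodes the monocarboxylate transporter MCT1, which carries lactate and pyruvate with a proton across the plasma membrane. The 81 bases before its first annotated base, chr3:104545730-104545810, plus strand, are shown with the E-box CACGTG in capitals, a motif bound by Myc, USF and related factors.
Slc16a1 promoter: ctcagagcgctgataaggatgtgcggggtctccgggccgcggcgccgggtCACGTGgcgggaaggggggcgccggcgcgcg
An E-box was in 7.15% of all windows (at least 1 window of 8.09% of genes) and in at least 1 window of Slc16a1, Ldha, Pdk2 and Pdp2. Slc16a1 was at 80.1, 103 and 94.0 CPM in UN and at 106, 126 and 136 CPM in GK alone. The GK values were above all 15 values of the 5 conditions of endogenous GK, whose highest was 105 CPM. Its log2 fold change was 0.40 (SE 0.08, adjusted p = 0.0152), with differences of 0.34, 0.33 and 0.52 in mice 1, 2 and 3. Without the culture that stands apart it was 0.41 (adjusted p = 0.0140).

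Pkm (chromosome 9) carries a pair of mutually exclusive exons that give the M1 and M2 enzymes, which differ in their regulation. The exons are printed because the transcript estimates rest on where they differ, and the capitals mark the 64 of 167 bases that differ (103 identical, 61.7%). The M1 exon is at chr9:59582312-59582478 and the M2 exon at chr9:59582851-59583017, both on the plus strand of GRCm39.
Pkm M1 exon: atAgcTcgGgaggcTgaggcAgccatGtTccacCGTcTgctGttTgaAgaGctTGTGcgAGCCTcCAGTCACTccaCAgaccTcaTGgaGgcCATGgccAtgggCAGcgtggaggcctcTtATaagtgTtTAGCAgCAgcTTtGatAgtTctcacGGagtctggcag
Pkm M2 exon: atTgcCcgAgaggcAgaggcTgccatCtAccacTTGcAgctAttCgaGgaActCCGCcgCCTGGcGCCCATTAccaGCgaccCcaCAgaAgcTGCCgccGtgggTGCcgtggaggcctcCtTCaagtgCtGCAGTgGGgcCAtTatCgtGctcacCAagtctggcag
Transcripts with the M2 exon held a median of 95.5% of the estimated reads of transcripts with either exon (88.3% to 100% over 36 cultures), and 94.4% on the TPM scale. Transcripts with the M1 exon did not exceed 40.9 CPM in any culture. The M2 transcript was at 245 to 397 CPM in the 6 cultures of UN and at 343 to 472 CPM in the 6 of GK alone, and the ranges overlapped. None of the 5 splicing factors known to act on these exons (Ptbp1, Hnrnpa1, Hnrnpa2b1, Srsf3 and Rbm4) passed in any comparison by edgeR without the mouse.

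Pkm as a whole was at 309, 484 and 438 CPM in UN and at 454, 531 and 559 CPM in GK alone. GK was above UN in each mouse and the ranges overlapped. The log2 fold change against the 5 combined groups was 0.40 (SE 0.16, adjusted p = 0.464), and 0.43 (SE 0.07, adjusted p = 0.000633) with the mouse in the model. Pkm was above Pklr per unit length in every condition. The ratio of Pkm to Pklr in CPM per kilobase was 3.68, 11.9 and 6.20 in UN and 3.50, 6.01 and 3.35 in GK alone, lowest in mouse 1 in UN and in mouse 3 under GK.

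In Pklr, the upstream and downstream first exons correspond to the red cell and liver types. Transcripts that begin with the downstream exon (chr3:89043879-89043944) held a median of 17.6% of the estimated reads by count and 43.5% by TPM, and from 0% to 51.7% by count over the 36 cultures. On either scale the downstream exon held the smaller median share. The size of the split changed too much with the scale for an order of the pair to be drawn here. Transcripts with the upstream exon were at 45.9 to 109 CPM in the 6 cultures of UN and at 89.2 to 195 CPM in the 6 of GK, and those with the downstream exon at 0 to 33.5 CPM and 16.9 to 53.9 CPM.

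Ldha (chromosome 7) differed by mouse rather than by vector. It was at 1242, 2376 and 1842 CPM in UN and at 1503, 2309 and 2070 CPM in GK alone, and over all conditions mouse 1 (1037 to 1503 CPM) lay below mouse 3 (1630 to 2070 CPM) and mouse 2 (2061 to 2453 CPM). Its change in GK against the 5 combined groups was 0.23 (SE 0.25, adjusted p = 1.00), and with the mouse in the model 0.27 (adjusted p = 0.0402), under the 30% change required. A stretch of its promoter, chr7:46494978-46495131, plus strand of GRCm39, is shown for an E-box, in capitals. This E-box also contains the core ACGTG of the hypoxia response element. The same window held another E-box, at −48 to −43 from the RefSeq start, which lies outside the printed stretch.
Ldha promoter: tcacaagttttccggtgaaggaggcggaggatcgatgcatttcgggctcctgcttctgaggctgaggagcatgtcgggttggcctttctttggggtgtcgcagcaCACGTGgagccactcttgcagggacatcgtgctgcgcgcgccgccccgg
The hypoxia core was searched as ACGTG or GCGTG on both strands and so overlaps every E-box. It was in 43.8% of all windows and in at least 1 window of 46.7% of genes. Of the 10 genes, 9 had it in at least 1 window, all but Pklr. The direct repeat of AGGTCA with 1 base between, bound by PPAR receptors, was in 0.0396% of windows and in none of the 10 genes.

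The kinases Pdk1 and Pdk2 also followed the animal. Pdk1 was at 67.7 to 107 CPM in mouse 1, 121 to 168 CPM in mouse 3 and 152 to 184 CPM in mouse 2. Pdk2, the widely expressed kinase, was at 18.1 to 37.9, 33.7 to 49.5 and 60.5 to 91.1 CPM in the same order. The hepatocyte marker sums, most of which was Alb (62262 to 122130 CPM), had the same order, and mouse 1, the lowest, had the highest cholangiocyte marker sum, carried by Spp1. Pklr did not have this order and was lowest in mouse 2. In UN the HIF-1 target Egln3 was at 113, 487 and 327 CPM in mice 1, 2 and 3. Vegfa, another, was at 90.6, 333 and 150 CPM, the same order, while Slc2a1 was at 122, 186 and 111 CPM. The part of the marker sums, or of other differences between the mice, in these levels was not tested. In bulk RNA, fewer hepatocytes and less RNA of a gene in each cannot be told apart. In GK against the 5 combined groups the changes of Pdk1 (0.26, SE 0.30) and Pdk2 (0.06, SE 0.39) had adjusted p = 1.00. The low genes Pdk4 (6.80 to 19.5 CPM) and Pdp2 (6.38 to 12.7 CPM) had changes of −0.30 (SE 0.17, adjusted p = 0.732) and −0.08 (SE 0.15, adjusted p = 1.00).

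GK alone was next compared with UN. By edgeR none of the 10 genes passed, as against 0.00821% of all genes, and none passed by DESeq2, as against 0.263%. At an unadjusted p under 0.05 by edgeR there were 3 of the 10, beside 2.04% of all genes. The estimates were 0.98 (SE 0.33) for Pklr, 0.80 (SE 0.24) for Pdhb and 0.41 (SE 0.12) for Slc16a1, higher in GK in 3 of 3 mice each. Once the mouse was fitted these 3 rose (adjusted p = 0.00101, 0.00335 and 0.00433), against 0.361% of all genes. Pdp2 was lower in GK than in UN without overlap, at 9.53, 9.74 and 8.79 CPM against 12.1, 12.7 and 10.7 CPM, with a log2 difference of −0.34 (SE 0.17, adjusted p = 1.00). Its counts were the lowest of the set, and the share of all genes that separated in this way is not given here.

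The effect of the GKRP vectors at endogenous GK was taken as the mean of hP, hL, mP and mL against UN. Pklr was the gene that differed most, with a log2 fold change of −0.81 (SE 0.25), and it was lower in 3 of 3 mice. By edgeR none of the 10 genes passed (Pklr adjusted p = 0.115), as against 1.89% of all genes, and none by DESeq2, as against 2.46%. At an unadjusted p under 0.05 by edgeR there were 2 of the 10 (Pklr and Pdp2), beside 9.36% of all genes. With the mouse in the model Pklr fell (−0.80, SE 0.11, adjusted p = 4.34e-05), 1 of 10 genes against 4.16% of all genes. Without mouse 2, whose Pklr was lowest throughout, it fell in the model without the mouse term as well (−0.84, adjusted p = 0.0102). Single vectors gave −0.78 (hP), −0.62 (hL), −0.97 (mP) and −0.85 (mL) for Pklr, none of which passed without the mouse. Once the mouse was fitted Pklr fell with each of them (adjusted p = 0.00327, 0.0196, 0.000250 and 0.00109), against 2.46%, 2.97%, 3.31% and 3.16% of all genes. Slc16a1 (0.02, 95% interval −0.17 to 0.20) and Pdhb (−0.10, −0.48 to 0.27) had no change past the test, and neither did Pdha1 (−0.05, −0.20 to 0.10). With the transcript length offset these were 0.21 (SE 0.22), −0.54 (SE 0.24) and −0.44 (SE 0.26), and none passed. The intervals therefore do not cover the effect of this choice. Pdp2 was at −0.35 (SE 0.13, adjusted p = 0.271), and with the mouse fitted it fell with mP and with no other single vector (−0.54, SE 0.15, adjusted p = 0.0475).

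**Figure D3:**
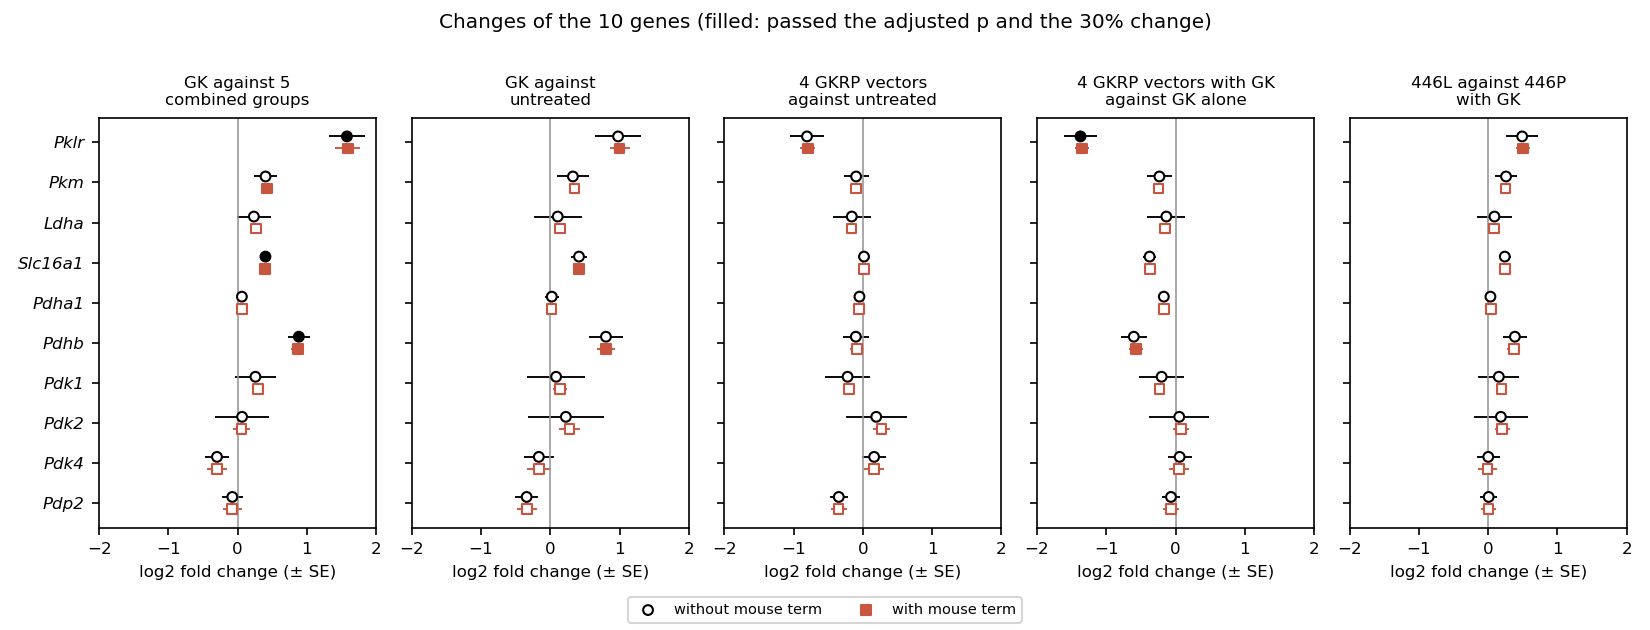
Log2 fold change ± SE (x axis) of the 10 genes in 5 comparisons, in models without (circles) and with (squares) the mouse, with filled symbols for genes that passed the adjusted p and the 30% change. Pklr moves up with GK (1.58 against the 5 combined groups) and down with GKRP vectors (−0.81 at endogenous GK and −1.37 with GK). Without the mouse, Pdha1 lies between −0.17 (GKRP vectors with GK) and 0.06 (GK against the 5 combined groups).

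Counter-regulation was measured in cells with GK by averaging the 4 GKRP vectors and comparing them with GK alone. Pklr fell and was the 1 gene of 10 that passed, against 1.61% of all genes. It was at 68.1, 40.2 and 68.6 CPM in GK with hP and at 57.4, 47.2 and 61.9 CPM in GK with mP. The 446L forms gave 70.0, 48.9 and 71.6 CPM for hL and 99.7, 84.7 and 121 CPM for mL. In the case of hP, hL or mP all 9 values lay below the lowest value of GK alone (121 CPM, mouse 2), while mL of mouse 3 was level with it. The log2 fold change was −1.37 (SE 0.24, adjusted p = 0.00155), and −1.404 (adjusted p = 0.00132) without the culture that stands apart. The call was lost without mouse 3 (−1.26, adjusted p = 0.337) and with the transcript length offset (−1.11, adjusted p = 0.422).

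Pdhb was lower with each GKRP vector in 3 of 3 mice. In cells that also expressed GK it was at 59.5, 83.4 and 83.3 CPM for hP and at 80.9, 82.5 and 78.8 CPM for mP. The 446L forms gave 78.7, 99.8 and 103 CPM for hL and 86.3, 118 and 128 CPM for mL. The mean log2 fold change was −0.60 (SE 0.18, adjusted p = 0.110). Once the mouse was fitted Pdhb fell (−0.57, SE 0.10, adjusted p = 0.000595), so that 2 of 10 genes passed, against 4.34% of all genes. Without mouse 1, the mouse with the lowest Pdhb under GK, it also fell in the model without the mouse term (−0.72, adjusted p = 0.00655). Slc16a1 had an adjusted p = 0.0278 with a log2 fold change of −0.37 (SE 0.09), which is short of a 30% decrease, and with the transcript length offset it was at −0.67 (SE 0.21, adjusted p = 0.396). Pkm (−0.23, SE 0.18), Ldha (−0.13, SE 0.27), Pdha1 (−0.17, SE 0.08) and Pdk1 (−0.20, SE 0.33) did not pass, and of these Pkm had an adjusted p = 0.0211 once the mouse was fitted, again short of the fold required. This comparison and those of GK with UN or the 5 combined groups share the GK samples, so their opposite signs are not independent.

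Relative to GK alone in the same mouse, Pklr was at 33.9% ± 4.19 (SD, n = 3) for hP, 37.1% ± 4.99 for hL, 32.8% ± 6.00 for mP and 59.7% ± 9.04 for mL. UN was at 51.0% ± 12.1 on the same scale. Pdhb was at 57.5% ± 9.25 for hP, 72.2% ± 13.9 for hL, 64.3% ± 22.3 for mP and 84.1% ± 11.1 for mL, and UN at 57.6% ± 2.21. For Slc16a1 the corresponding values were 70.5% ± 4.43, 83.6% ± 7.36, 72.3% ± 7.21 and 85.4% ± 7.53, with UN at 75.2% ± 6.15. The mL vector gave the highest mean for each of these 3 genes, and the 446P vectors the lowest.

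**Figure D4:**
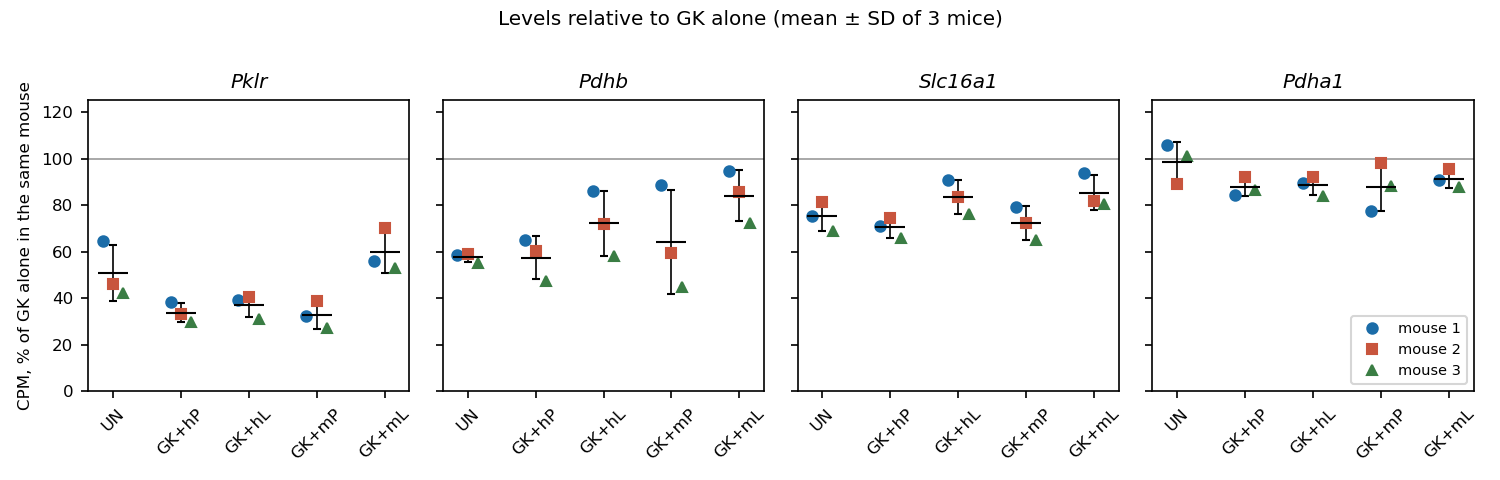
CPM as a percentage of GK alone in the same mouse (y axis) for Pklr, Pdhb, Slc16a1 and Pdha1 in UN and in GK with each GKRP vector, with points for 3 mice and bars for mean ± SD. Pklr is at 32.8% to 37.1% for hP, hL and mP and at 59.7% for mL, whereas Pdha1 stays at 87.7% to 98.6%.

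When each GKRP vector was tested singly against GK alone by edgeR, none of the 10 genes passed. Pklr was at −1.57 with hP, −1.47 with hL and −1.66 with mP, each without overlap with GK alone, and at −0.79 with mL, with overlap. Such separation was not particular to Pklr. It also held for Slc16a1 with hP, hL and mP, Pdha1 with hP and hL, and Pdhb with hP and mP. Pkm with hP and Pdp2 with mP were separated from GK alone as well. How many of all genes separated in this way is not given here. The share of all genes that passed was 0.107% for hP, 0.00821% for hL, 0.271% for mP and 0.00821% for mL. At an unadjusted p under 0.05 there were 3, 3, 3 and 2 genes of the 10 for hP, hL, mP and mL, beside 6.45%, 6.69%, 11.6% and 6.16% of all genes. DESeq2 called 2, 1, 1 and 0 of the 10, beside 0.599%, 0.328%, 1.56% and 0.214% of all genes. With the mouse in the model Pklr fell with hP (−1.58, adjusted p = 0.00236), hL (−1.45, adjusted p = 0.00968) and mP (−1.63, adjusted p = 0.00114), and Pdhb with hP (−0.83, adjusted p = 0.000745) and mP (−0.69, adjusted p = 0.00261). That was 2 genes for hP against 0.797% of all genes, 1 for hL against 0.312%, and 2 for mP against 4.62%. With mL none passed, against 0.0164% of all genes, and Pklr was at −0.75 (SE 0.26, adjusted p = 0.229). DESeq2 with the mouse, which took repeat cultures of a mouse as separate samples, called Pklr with mL as well, against 1.56% of all genes.

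The P446L substitution was tested as 446L against 446P with GK, averaged over human and mouse GKRP. By edgeR none of the 10 genes passed and neither did any other (0% of all genes). DESeq2 called none of the 10, against 0.14% of all genes. At an unadjusted p under 0.05 by edgeR there were 3 of the 10 (Pklr, Slc16a1 and Pdhb), beside 2.39% of all genes. Slc16a1 was at 75.4 to 94.2 CPM with the 446P vectors and at 96.7 to 110 CPM with the 446L vectors, and the groups did not overlap. The log2 difference was 0.24 (SE 0.08, adjusted p = 1.00), and with the mouse in the model 0.24 (SE 0.05, adjusted p = 0.0266), which is under the 30% change. With the transcript length offset it was at 0.025 (SE 0.20, adjusted p = 0.992). Pklr was higher with 446L in 3 of 3 mice (0.49, SE 0.23), and with the mouse in the model it passed (0.50, SE 0.10, adjusted p = 0.0271), 1 of 10 genes against 0.345% of all genes. Pdhb was at 0.39 (SE 0.17) and, with the mouse, 0.37 (SE 0.09, adjusted p = 0.0973).

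The human and mouse forms were also taken apart. For mL against mP with GK none of the 10 genes passed by edgeR or DESeq2, against 0.0164% and 0.156% of all genes. By edgeR 1 of the 10, Pklr, was at an unadjusted p under 0.05, beside 3.51% of all genes. Pklr (0.88, SE 0.33), Pdhb (0.46, SE 0.24) and Slc16a1 (0.24, SE 0.12) were each higher with mL without overlap. The share of all genes without overlap is not given here. With the mouse in the model Pklr passed (0.87, SE 0.15, adjusted p = 0.0103), against 0.214% of all genes. For hL against hP the values were 0.11 (SE 0.33), 0.32 (SE 0.24) and 0.24 (SE 0.12), with overlap for Pklr and Pdhb and none for Slc16a1. With the transcript length offset, Slc16a1 was at 0.044 for mL against mP and 0.0056 for hL against hP (SE 0.28 for both), and Pklr at 1.71 (SE 0.50, adjusted p = 0.187) and −0.37 (SE 0.49, adjusted p = 0.998). Whether the human and mouse forms differ in this respect was not tested. At endogenous GK the 446L minus 446P differences were 0.14 (SE 0.24) for Pklr, 0.00 (SE 0.08) for Slc16a1 and 0.04 (SE 0.17) for Pdhb.

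The effect of GK in the presence of a GKRP vector compares cells that all carry a GKRP vector. None of the 10 genes passed by edgeR, against 0.0164% of all genes, and none by DESeq2, against 0.205%. At an unadjusted p under 0.05 by edgeR there were 3 of the 10 (Pklr, Pdhb and Pdk4), beside 6.64% of all genes. Pklr was at 0.41 (SE 0.17, adjusted p = 0.723) and Pdhb at 0.30 (SE 0.12, adjusted p = 0.723). With the mouse in the model Pklr rose (0.44, SE 0.07, adjusted p = 0.00676), 1 of 10 genes against 0.14% of all genes. By vector, Pklr was at 0.19 (hP), 0.13 (hL), 0.29 (mP) and 1.05 (mL, SE 0.33), and GK with mL was above mL alone without overlap. For mL, Pklr (1.09, adjusted p = 0.000853) and Pkm (0.39, adjusted p = 0.0466) passed once the mouse was fitted, against 0.246% of all genes, and neither passed without it. The interaction, that is the GKRP effect with GK minus that at endogenous GK, was −0.57 (SE 0.37) for Pklr, −0.50 (SE 0.27) for Pdhb and −0.39 (SE 0.13) for Slc16a1. The transcript length offset moved it to −0.081 (SE 0.35) for Pdhb and −0.88 (SE 0.31) for Slc16a1. None of the 10 passed in either edgeR model and neither did any other gene (0% of all genes in both). At an unadjusted p under 0.05 there was 1 of the 10 without the mouse (1.46% of all genes) and 3 with it (4.06%). DESeq2 called none of the 10 without the mouse, against 0.164% of all genes. With the mouse it called Pklr (−0.56, adjusted p = 0.00278), against 0.619% of all genes. That model took repeat cultures of a mouse as separate samples.

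After each gene was centred on its mean in each mouse, the genes whose log2 CPM followed Pklr most closely over the 30 samples were Trim7 (r = 0.94), Slc25a44 (0.94), Acly (0.93), Tkfc (0.93) and Txnip (0.92). Slc16a1 was followed by Pdhb (0.85) and Fbxo34 (0.82), among others, and Pkm by Eno1 (0.91), Gpi1 (0.89) and Slc37a4 (0.87). For Ldha these were Tpi1 (0.93), Eno1 (0.87) and Sdhc (0.83), and for Pdk4 Rragc (0.76), Cdv3 (0.72) and 4732487G21Rik (0.68). Within the set, Slc16a1 and Pdhb had the highest coefficient (0.85), then Pkm and Ldha (0.81), while Pdha1 and Pdhb had 0.00. These coefficients describe 30 samples that share libraries, vectors and mice.

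Of the neighbouring pathway genes, Acly and Pfkfb3 rose in GK against the 5 combined groups by edgeR without the mouse, and both fell with GKRP vectors on top of GK. Acly, which makes cytosolic acetyl-CoA from citrate, had log2 fold changes of 1.18 (adjusted p = 0.000361) and −0.96 (adjusted p = 0.00749). Pfkfb3, which makes the activator of phosphofructokinase fructose 2,6-bisphosphate, was at 1.07 (adjusted p = 0.0229) and −0.95 (adjusted p = 0.0138). These made up 1 of 10 tested genes of pyruvate entry and other fates (Acly) and 1 of 10 targets of HIF-1 (Pfkfb3). None of 6 other subunits and regulators of the pyruvate dehydrogenase complex, 4 tested genes of lactate and 10 targets of PPAR-alpha passed in these comparisons in the model without the mouse. The median log2 fold change in GK against the 5 combined groups was 0.06 for the complex, 0.14 for lactate and −0.14 for the targets of PPAR-alpha, beside −0.01 over all genes tested. Ldhb, Emb and Me3 were too low to be tested.

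In the model with the mouse, Eno1 (enolase, 0.44, adjusted p = 0.000563), Me1 (malic enzyme, 0.41, adjusted p = 0.00101), Dlat (the E2 subunit of the complex, 0.39, adjusted p = 0.00143) and Slc16a3 (the lactate exporter MCT4, 0.63, adjusted p = 0.0259) rose as well in GK against the 5 combined groups. The PPAR-alpha target Angptl4 fell with GKRP vectors at endogenous GK (−0.71, adjusted p = 0.000629). In 446L against 446P with GK, 6 of the 10 targets of HIF-1 passed as higher with 446L with the mouse in the model and none without it, by edgeR, against 0.345% and 0% of all genes. They were Pfkfb3 (0.94, adjusted p = 0.000390), Vegfa (0.72, adjusted p = 0.000639), Slc2a1 (0.51, adjusted p = 0.00190), Egln3 (0.62, adjusted p = 0.00785), P4ha1 (0.49, adjusted p = 0.00912) and Ankrd37 (1.05, adjusted p = 0.0149). The median of this list, which was written with earlier results of these data known, was 0.50, beside 0.00 over all genes tested. For each of the 6, the mean CPM with GK and a 446P vector was below both UN and GK alone. With GK and a 446L vector it was at or above UN. Pfkfb3 was at 52.7 (hP), 51.5 (mP), 94.6 (hL) and 100 CPM (mL) with GK, against 81.6 in UN and 137 in GK alone. At endogenous GK the mean CPM of each of the 6 was also higher with hL than hP, and with mL than mP. Pfkfb3 was at 77.2 against 50.5 and 69.0 against 48.4 CPM, and Vegfa at 241 against 146 and 174 against 136 CPM. No test of these differences is given here. Slc16a3, Slc2a1, Egln3, P4ha1 and Ankrd37 are named after their values were seen. Ldha and Pdk1, which are also known targets of HIF-1, were at 0.09 (SE 0.06, adjusted p = 0.890) and 0.19 (SE 0.08, adjusted p = 0.559) in that model.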

How the data were processed

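Primary hepatocyte RNA was sequenced in 36 cultures. The authors quantified reads with Salmon 1.4.0 (submitters' processing notes) against the Gencode M26 mouse transcripts (GRCm39) and deposited expected counts and TPM per transcript. Here, expected counts were summed per gene (137570 of 139225 transcripts matched by ID to a later Gencode annotation, M39), repeat cultures from 1 mouse were added within a condition, and sums were rounded. Reads outside matched transcripts were 0.392% to 0.639%. The strand setting is not given in the sources used here.

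Genes were filtered by expression (filterByExpr), scaled by TMM and tested by the quasi-likelihood F test of edgeR 4.0.16 (R 4.3.3) with Benjamini-Hochberg adjustment over 12177 genes, in a model of 6 groups for GK against the 5 combined groups and for single GKRP vectors with GK against GK alone, and of 10 conditions otherwise. Calls needed an adjusted p under 0.05 and a fold change outside 0.7 to 1.3. The authors used DESeq2, and version 1.42.0 was run here for comparison, on the 30 samples without the mouse and on the 36 cultures with it. The edgeR test was checked on simulated data. Cultures of 1 animal share a mouse number, so the mouse pairs the samples. Deviations from group means correlated at 0.223 on average within a mouse (82.2% of 135 pairs over 0.1) and −0.110 between mice, and the biological coefficient of variation was 0.323 without and 0.231 with the mouse. Salmon shortened effective lengths by 153 to 851 bases between libraries, which limits TPM. All 10 members were examined in each comparison, list genes were named if called, up to 8 by adjusted p, and likeness was ranked by Pearson correlation. The members and lists were chosen with earlier results of these data known. Counting error is larger for Pdk4 and Pdp2, the lowest genes. Overlap of ranges is given for the members only, as a description without a share over all genes. Some genes of the neighbouring lists, and the expression check of 1 vector, are not reported here.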

Additional observations from a re-analysis of the deposited data

Results flagged for a closer look

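With some GKRP vectors, the GK effect on Slc16a1 and Pdk2 ran opposite to GK against UN in every mouse, and the difference was not tested for single vectors. These cases came from a search of 12 pairs of contrasts for each of the 10 genes. How many such cases chance would give in that search was not tested. For Slc16a1, GK against UN was 0.41 (SE 0.12) on the log2 scale, higher in 3 of 3 mice. GK with hP against hP was −0.14 (SE 0.12) and GK with mP against mP was −0.048 (SE 0.12), lower in 3 of 3 mice each. For Pdk2, GK against UN was 0.22 (SE 0.55), higher in 3 of 3 mice, and GK with hP against hP was −0.063 (SE 0.55), lower in 3 of 3. With mL both ran the same way as GK against UN, at 0.17 for Slc16a1 and 0.34 for Pdk2, higher in 3 of 3 mice each. With hL (0.11 and 0.015), and for Pdk2 with mP (0.048), the mice differed in direction. Over the mean of the 4 vectors the difference was tested as the interaction, which was −0.39 for Slc16a1 and −0.14 for Pdk2 (adjusted p = 1.00 by edgeR for both). None of these estimates passed the adjusted p of edgeR. The 20 groups of 6 cultures (UN and GK alone, 10 genes) held no culture far from the others.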

How the results depend on the processing

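With the replicate block (mouse as a term), the number of the 10 genes called was 3 for GK against UN, 1 for GKRP vectors against UN, 2 for GKRP vectors with GK against GK alone, 1 for the GK effect with GKRP and 1 for 446L against 446P. DESeq2 with this block gave the same numbers and 1 for the interaction. Its shares of all genes were 1.42%, 5.7%, 6.03%, 0.383% and 0.684% in the same order, and 0.619% for the interaction. The block without the culture that stands apart, added after seeing the data, gave 3, 1, 2, 1 and 1. The block ended no call made without it. Taking 36 cultures as samples gave 1, 1 and 2 for the first 3 of these comparisons. The transcript length offset gave 0 for GK against the 5 combined groups and 0 for GKRP vectors with GK, and the adjusted p alone gave 2 for the latter. Leaving out each mouse in turn gave 0 to 3 called for GK against the 5 combined groups, 0 to 1 for GKRP vectors against UN and 0 to 2 for GKRP vectors with GK against GK alone. By TPM, transcript shares were 43.5% (Pklr downstream exon), 59.2% (most abundant transcript of Pdk2), 68.2% (that of Pdha1) and 48.2% (that of Ldha). The cause of these changes was not tested.

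Of 70 log2 fold changes, 30 changed sign in at least 1 alternative (44 times), none of them above 0.34 in size at first. With the length offset they were −0.14 (Ldha), −0.10 (Pdha1), −0.13 (Pdk2) and 0.14 (Pdp2) for GK against the 5 combined groups, −0.34 (Pkm), −0.47 (Ldha), −0.44 (Pdha1), −0.081 (Pdk1) and 0.026 (Pdp2) for GK against UN, 0.064 (Pkm), 0.32 (Ldha) and 0.21 (Pdha1) for GKRP vectors with GK, −0.094 (Slc16a1), 0.21 (Pdha1) and 0.27 (Pdk4) for the GK effect with GKRP, −0.23 (Pdp2) for 446L against 446P, and 0.63 (Pkm), 0.65 (Pdha1), 0.50 (Pdk4) and −0.24 (Pdp2) for the interaction. Without the low-count filter Slc16a1 was at −0.020 for GKRP vectors against UN. With the block, Pdk4 was at −0.0101 for 446L against 446P (−0.0059 by DESeq2, −0.0103 without the culture that stands apart, −0.000208 with 36 cultures and no block) and Pdk1 at −0.031 for the interaction (−0.0035 by DESeq2, −0.043 without that culture). Pdk2 in GKRP vectors with GK was at −0.016 without that culture and at −0.0029 with the block as well.

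Leaving out each mouse in turn, sign changes lay within −0.051 to 0.070 (Pdha1) and −0.012 to 0.16 (Pdk1) for GK against UN, −0.020 to 0.039 (Slc16a1), −0.12 to 0.0029 (Pdha1) and −0.20 to 0.052 (Pdhb) for GKRP vectors against UN, −0.021 to 0.12 (Pdk2) and −0.12 to 0.15 (Pdk4) for GKRP vectors with GK, −0.12 to 0.038 (Pdp2) for the GK effect with GKRP, −0.025 to 0.066 (Pdha1), −0.20 to 0.15 (Pdk4) and −0.061 to 0.040 (Pdp2) for 446L against 446P, and −0.057 to 0.11 (Ldha) and −0.080 to 0.10 (Pdk1) for the interaction.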
